A study of Auricularia auricula-judae with 2 samples.

Results

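The 9 genes described here encode small heat shock proteins and HSP12-type stress proteins of Auricularia auricula-judae, an edible jelly fungus. They carry the deposited names hsp16, HSP17.9A, hspc4-1, hspA and HSP12, and were taken from an assembled transcriptome of 43428 genes and 57717 transcripts. All isoforms of an assembled gene were summed, and the 9 genes held 13 transcripts. The genes were chosen by their name and selected on their FPKM ratio between the libraries in an earlier look at the same data, so every ratio given for them is a description and none was tested. RNA-seq was made from fruit bodies of 2 groups with 1 library each. In the irradiated group, mycelium grown on agar at 25 °C for 14 days received 200 Gy of gamma radiation. In the control group the mycelium was grown alike and left unexposed. Mycelium of both groups then grew through sawdust and rice bran (8 to 2) at 25 °C for 30 days and fruited at 18 °C and 90% humidity, so the RNA came from tissue that formed weeks after the exposure. The sources do not state how many fruit bodies went into a library. No value below has a replicate check, and the read depth behind the values is unknown.

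Small heat shock proteins are chaperones that work without ATP. They assemble into large complexes, hold partly unfolded proteins through a conserved alpha-crystallin domain, and pass them on to the HSP70, HSP40 and HSP104 machines, which refold them. In fungi their genes are targets of the heat shock transcription factor. HSP12 of budding yeast is another kind of protein, small, hydrophilic and unfolded in solution, which folds on membranes and is made under heat, osmotic stress and starvation. The deposited names are closest Swiss-Prot matches and not curated genes of this fungus. The match of hsp16 is a fission yeast protein, that of HSP17.9A a rice class I protein, that of hspc4-1 a protein of the bacterium Rickettsia, that of hspA the spore protein SP21 of the myxobacterium Stigmatella, and that of HSP12 the budding yeast protein.

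Levels are FPKM as the authors deposited them, a measure of fragments that is divided by transcript length and by library size. They summed to 983895 in the irradiated library and to 970111 in the control library. Ratios are log2 of FPKM + 1, irradiated over control. Of 8 genes matched by name to fruit body markers, 5 averaged 10 FPKM or more across the libraries, and these carry the names SC3, SC7 and priA. Their log2 ratios lay between -0.27 and 0.90, and the most abundant, an SC7 gene (TBIU011590), had 256 FPKM in the irradiated library and 137 FPKM in the control library.

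Most of the small heat shock and HSP12 genes stood lower after irradiation. Of the 9 genes, 6 were 2-fold or more below the control library, 0 were 2-fold or more above it and 3 lay within 2-fold. All 9 averaged 10 FPKM or more. Among all 8910 genes that did so, 12.1% were 2-fold or more below the control library and 12.6% were 2-fold or more above it. Of the 8910 genes, 154 had an FPKM of 0 in the irradiated library and 221 in the control library, and none of the 9 was among them. Among the 3452 genes that averaged 50 FPKM or more, 8.89% were below and 6.98% above. Since this same ratio helped to choose the 9 genes, nothing is read from the distance between these shares. The median log2 ratio was -2.32 over the 9 genes and 0.10 over the 8910. The median level of the 9 genes was 59.5 FPKM in the irradiated library and 424 FPKM in the control library, while that of the 8910 genes was 34.9 FPKM in the irradiated library and 33.1 FPKM in the control library. In bulk tissue, fewer cells that express a gene and less of its RNA per cell cannot be told apart.

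**Figure D1:**
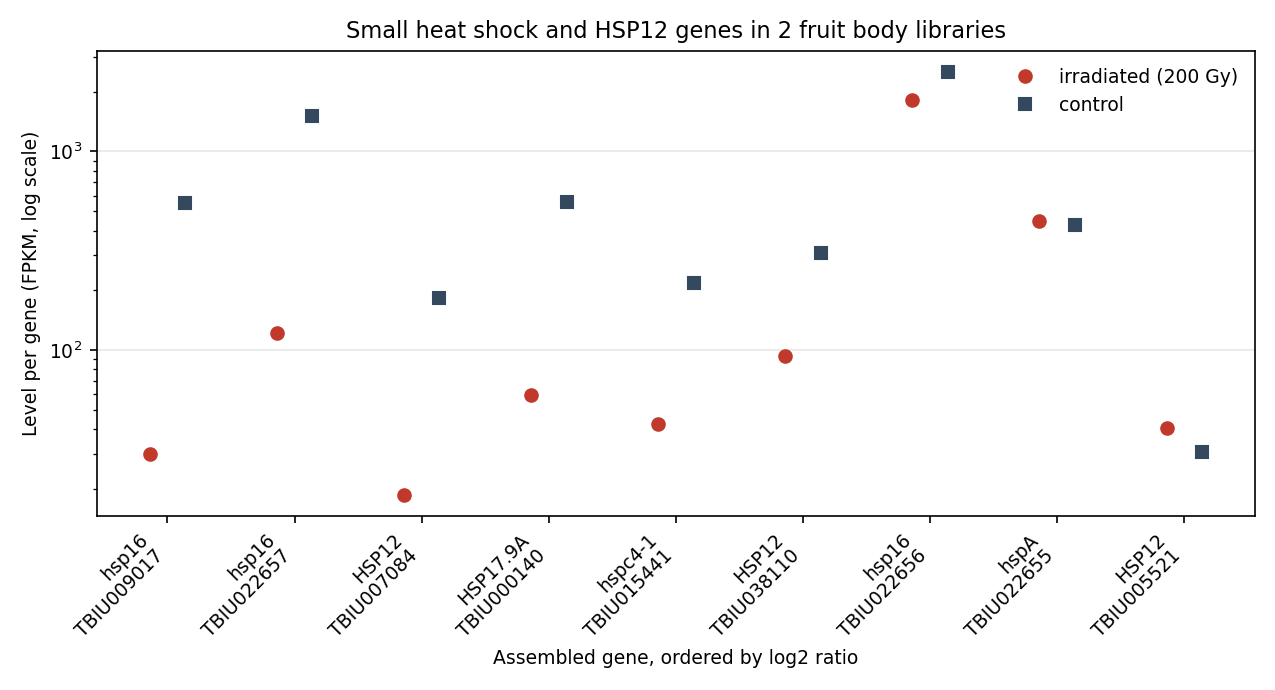
Level of each of the 9 genes (FPKM, log axis) in the irradiated library (red circles) and in the control library (dark squares), ordered by log2 ratio from the lowest at the left. Each point is 1 library; the circles lie well below the squares for the 6 genes at the left, and close to them for hsp16 TBIU022656, hspA TBIU022655 and HSP12 TBIU005521 at the right.

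The 3 hsp16 genes did not behave alike. The gene furthest below the control was hsp16 TBIU009017, with 30.1 FPKM in the irradiated library and 553 FPKM in the control library, an 18.4-fold difference and a log2 ratio of -4.16. It held rank 4908 of all genes by FPKM in the irradiated library and rank 225 in the control library. The next, hsp16 TBIU022657, had 121 FPKM in the irradiated library and 1512 FPKM in the control library, a log2 ratio of -3.63. It held rank 1540 in the irradiated library and rank 54 in the control library. These genes belong to different assembly clusters, and both were among the more abundant genes of the control library.

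The remaining hsp16 gene, TBIU022656, was the most abundant of the 9 in both libraries. It had 1818 FPKM in the irradiated library and 2517 FPKM in the control library, a log2 ratio of -0.47. By level it held rank 29 in the irradiated library and rank 15 in the control library. The irradiated library thus still held an hsp16 transcript among its most abundant RNAs. How reads were divided between this gene and others of its assembly cluster was not tested.

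The other small heat shock genes also differed from each other. HSP17.9A (TBIU000140), matched to a plant cytosolic small heat shock protein, had 59.5 FPKM in the irradiated library and 557 FPKM in the control library, a log2 ratio of -3.20. The gene hspc4-1 (TBIU015441), matched to a bacterial family member, had 42.4 FPKM in the irradiated library and 216 FPKM in the control library, a log2 ratio of -2.32. Both were lower after irradiation. The spore protein gene hspA (TBIU022655) had 449 FPKM in the irradiated library and 424 FPKM in the control library, a log2 ratio of 0.08, so its levels were nearly equal.

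The 3 HSP12 genes were as uneven. HSP12 TBIU007084 had 18.7 FPKM in the irradiated library and 183 FPKM in the control library, a log2 ratio of -3.22. HSP12 TBIU038110 had 93.2 FPKM in the irradiated library and 309 FPKM in the control library, a log2 ratio of -1.72. HSP12 TBIU005521, the lowest of the 9 genes in the control library, had 40.6 FPKM in the irradiated library and 30.6 FPKM in the control library, a log2 ratio of 0.40. It was the only one of the 3 that stood above the control.

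The 2-fold line falls in a gap between the 9 genes. The gene just past it was HSP12 TBIU038110 at -1.72, and the gene nearest to it among those within 2-fold was hsp16 TBIU022656 at -0.47.

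**Figure D2:**
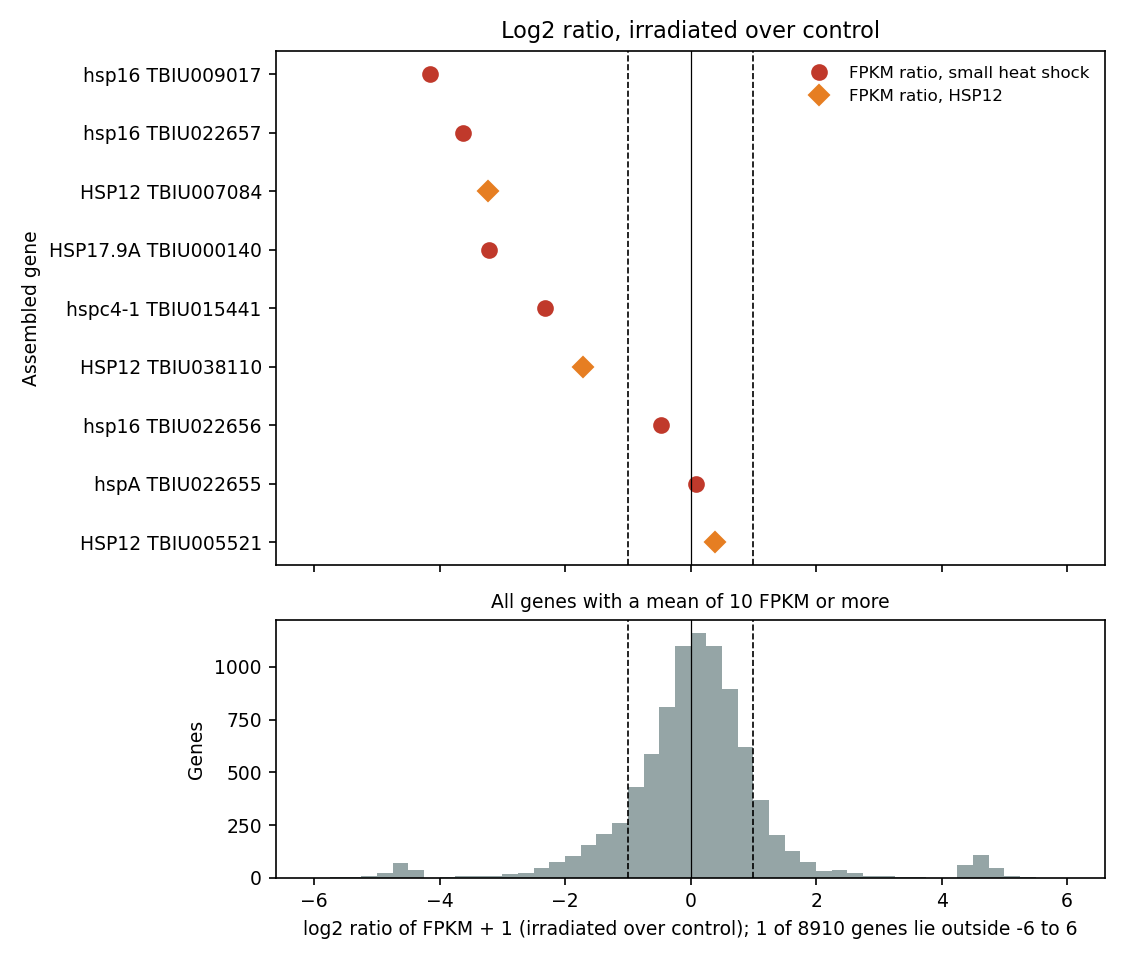
Upper panel: log2 ratio of FPKM + 1 (irradiated over control) of each of the 9 genes, as circles for small heat shock genes and diamonds for HSP12 genes. Lower panel: the same ratio for the 8910 genes that average 10 FPKM or more, with dashed lines at 2-fold; 6 of the 9 genes lie left of the lower line, 1 gene of the 8910 lies outside the axis, and the small peaks near both ends hold mostly genes listed at 0 in 1 library.

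Isoforms added detail to the HSP12 genes. HSP12 TBIU007084 had 2 isoforms, both lower after irradiation. Its described isoform (TBIU007084) had 16.6 FPKM in the irradiated library and 164 FPKM in the control library (log2 ratio -3.23). Its undescribed isoform (TBIU054927) had 2.05 FPKM in the irradiated library and 18.1 FPKM in the control library (log2 ratio -2.65). The described isoform held 89.0% of the gene's FPKM in the irradiated library and 90.1% in the control library, so the isoform shares were alike.

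HSP12 TBIU038110 also had 2 isoforms. The main isoform (TBIU038110) had 93.2 FPKM in the irradiated library and 287 FPKM in the control library, a log2 ratio of -1.61. The minor isoform (TBIU038111) was listed at 0 in the irradiated library and at 22.0 FPKM in the control library, where it made up 7.12% of the gene. The main isoform therefore carried most of the gene's difference.

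HSP12 TBIU005521 had 3 isoforms, and its main isoform was at almost the same level in both libraries. That isoform (TBIU005521) had 31.3 FPKM in the irradiated library and 30.1 FPKM in the control library, a log2 ratio of 0.06. The isoform TBIU005522 was listed at 9.34 FPKM in the irradiated library and at 0 in the control library. The isoform TBIU005520 was listed at 0 in the irradiated library and at 0.57 FPKM in the control library. The gene's higher sum after irradiation thus came mostly from TBIU005522. Each of the 6 small heat shock genes was assembled as 1 transcript.

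Of the small heat shock genes, 3 came from a single assembly cluster, a group of contigs that the assembler built from connected reads. The cluster held hsp16 TBIU022657, hsp16 TBIU022656, hspA TBIU022655 and an undescribed gene (TBIU059248) with 3.01 FPKM in the irradiated library and 2.79 FPKM in the control library. Summed, it had 2392 FPKM in the irradiated library and 4456 FPKM in the control library, a log2 ratio of -0.90. The gene TBIU022657 made up 5.08% of the cluster in the irradiated library and 33.9% in the control library. TBIU022656 made up 76.0% in the irradiated library and 56.5% in the control library, and hspA made up 18.8% in the irradiated library and 9.52% in the control library. The level of TBIU022656 was 15.0 times that of TBIU022657 in the irradiated library and 1.67 times in the control library. Whether reads were shared or divided wrongly among these genes was not tested.

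The clusters of the other genes were simpler. The cluster of hspc4-1 held 1 further gene, undescribed (TBIU015440), with 2.53 FPKM in the irradiated library and 6.46 FPKM in the control library, and the cluster sum had a log2 ratio of -2.28. The cluster of HSP12 TBIU005521 held 1 further gene (TBIU005523), matched to WHS11, a white-phase protein of Candida albicans related to HSP12. This gene was listed at 17.7 FPKM in the irradiated library and at 0 in the control library. With it, the cluster sum was 58.3 FPKM in the irradiated library and 30.6 FPKM in the control library, a log2 ratio of 0.91. Leaving aside the 3 genes of the shared hsp16 cluster, 5 of the other 6 genes were 2-fold or more below the control, with a median log2 ratio of -2.76. The share below was 12.1% among all 8910 genes. These 6 genes were selected on the same ratio, so nothing is read from their count.

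**Figure D3:**
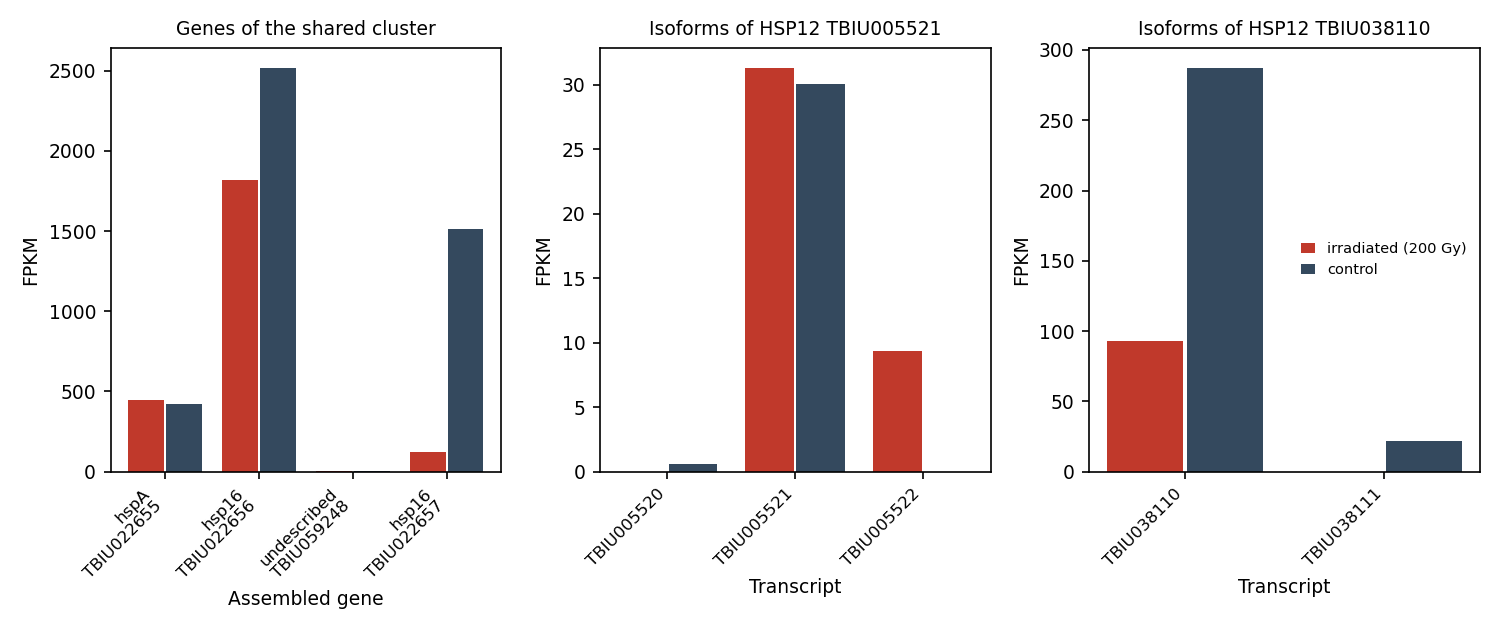
FPKM (bars from 0) in the irradiated library (red, left bar) and the control library (dark, right bar) for the 4 assembled genes of the shared cluster, the 3 isoforms of HSP12 TBIU005521 and the 2 isoforms of HSP12 TBIU038110. In the shared cluster the largest difference sits in hsp16 TBIU022657, and the isoforms TBIU005522 and TBIU038111 are each listed at 0 in 1 library.

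The order of the 9 genes by level differed between the libraries. In the irradiated library hsp16 TBIU022656 came first and hspA next, ahead of hsp16 TBIU022657, HSP12 TBIU038110, HSP17.9A, hspc4-1, HSP12 TBIU005521, hsp16 TBIU009017 and HSP12 TBIU007084. In the control library the order was hsp16 TBIU022656, hsp16 TBIU022657, HSP17.9A, hsp16 TBIU009017, hspA, HSP12 TBIU038110, hspc4-1, HSP12 TBIU007084 and HSP12 TBIU005521. Some neighbours were close: hspc4-1 was 1.04 times HSP12 TBIU005521 in the irradiated library, and HSP17.9A was 1.01 times hsp16 TBIU009017 in the control library. With 1 library a group there is no spread by which to tell such neighbours apart. The highest gene stood 97.3 times above the lowest in the irradiated library and 82.2 times in the control library.

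Summed over the 6 small heat shock genes, the level was 2521 FPKM in the irradiated library and 5779 FPKM in the control library, or 43.6% of the control level. These genes held 0.256% of all FPKM in the irradiated library and 0.596% in the control library. The gene hsp16 TBIU022656 supplied 72.1% of that sum in the irradiated library and 43.6% in the control library. Without it the sum was 703 FPKM in the irradiated library and 3262 FPKM in the control library, or 21.5% of the control level. The 3 HSP12 genes summed to 153 FPKM in the irradiated library and 522 FPKM in the control library, or 29.2% of the control level. Within the HSP12 sum, TBIU007084 held 12.3% in the irradiated library and 34.9% in the control library, while TBIU005521 held 26.6% in the irradiated library and 5.86% in the control library. The share of TBIU038110 was similar in both, at 61.1% in the irradiated library and 59.2% in the control library.

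The table held 17 further genes with descriptions of these families, looked up after the values had been seen, and most were scarce. Of 12 HSP12 or WHS11 genes, 2 averaged 10 FPKM or more, and both were lower after irradiation. The WHS11 gene TBIU002349 had 9.45 FPKM in the irradiated library and 41.9 FPKM in the control library, and the HSP12 gene TBIU006756 had 10.6 FPKM in the irradiated library and 46.9 FPKM in the control library. Each had a log2 ratio of -2.04. Among all 8910 genes, 12.1% were 2-fold or more below the control. The 10 scarcer HSP12 or WHS11 genes fell on both sides of the 2-fold lines. Their log2 ratios ran from -2.66 (TBIU046143) to 4.22 (TBIU005523), so no common direction is read for the 12 genes. Of 5 further small heat shock genes, the one that averaged 10 FPKM or more was HSP17.7 (TBIU015026), matched to a class II plant protein. It had 26.7 FPKM in the irradiated library and 15.7 FPKM in the control library, a log2 ratio of 0.73, on the other side of 0 from HSP17.9A. The 17 genes together held 87.2 FPKM in the irradiated library and 131 FPKM in the control library, against 2673 FPKM in the irradiated library and 6302 FPKM in the control library for the 9 genes.

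The rest of the heat shock system was read from 7 lists of gene descriptions, which held 61 genes that averaged 10 FPKM or more. Of these, 2 were 2-fold or more below the control library and 6 were 2-fold or more above it. Among all 8910 genes, the shares were 12.1% below and 12.6% above, and neither count was a larger part of the 61. The 61 genes had a median of 0.28, beside 0.10 for the 8910 genes. The heat shock transcription factor gene HSF1 (TBIU011483), whose product switches on small heat shock genes in yeasts, had 165 FPKM in the irradiated library and 170 FPKM in the control library, a log2 ratio of -0.04. The disaggregase hsp104 (TBIU028326), which works on aggregates that small heat shock proteins help to keep accessible, had 381 FPKM in the irradiated library and 752 FPKM in the control library. At -0.98 its log2 ratio lay just short of the 2-fold line, and it passed that line when the median of the 8910 genes was removed.

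The HSP90 list, co-chaperones included, held 15 genes with a median log2 ratio of 0.78, of which 4 were 2-fold or more above the control library and 0 below. Among all 8910 genes, 12.6% were above and 12.1% below. The most abundant gene of the HSP90 list, swo1 (TBIU033645), had 2889 FPKM in the irradiated library and 1681 FPKM in the control library (log2 ratio 0.78). The 4 higher genes were HSP90 genes, with log2 ratios of 1.05 (TBIU002339), 1.12 (TBIU001299), 1.19 (TBIU008095) and 1.69 (TBIU008678). Whether some of the 15 assembled genes are parts of the same gene was not tested.

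The HSP70 list, with the co-chaperones FES1, cns1 and HOP1 included, held 17 genes with a median log2 ratio of -0.04, with 1 below and 1 above the 2-fold lines. The genes cns1 and HOP1 are in the HSP90 list as well and count once among the 61. The most abundant, AN6010 (TBIU014117), had 1782 FPKM in the irradiated library and 1546 FPKM in the control library (log2 ratio 0.21). The gene below was a bipA gene (TBIU004378), listed at 0 in the irradiated library and at 23.6 FPKM in the control library. The gene above was an HSP70 gene (TBIU042967), listed at 25.6 FPKM in the irradiated library and at 0 in the control library. A gene that is listed at 0 in 1 library and averages 10 FPKM or more is always past 2-fold. Another bipA gene (TBIU001231) had 22.5 FPKM in the irradiated library and 31.6 FPKM in the control library (log2 ratio -0.47). The 14 HSP40 genes, which recruit HSP70 to its substrates, had a median of 0.21, with DNAJA2 (TBIU006785, -1.84) below and DNAJB14 (TBIU005727, 1.43) above. Their most abundant gene, YDJ1 (TBIU009309), had 467 FPKM in the irradiated library and 428 FPKM in the control library. At a mean of 50 FPKM or more, the HSP70 and HSP40 lists held 9 genes each, with 0 past 2-fold in either direction.

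The 5 chaperonin and prefoldin genes had a median of 0.75 and 0 past 2-fold, and the most abundant, cct2 (TBIU020149), had 274 FPKM in the irradiated library and 162 FPKM in the control library. The 8 genes that make or break down trehalose, a sugar that protects proteins under stress, had a median of 0.30 and 0 past 2-fold. The most abundant of them, trehalose phosphorylase (TSase, TBIU013278), had 419 FPKM in the irradiated library and 250 FPKM in the control library. The difference between these lists and the 9 genes was not tested.

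**Figure D4:**
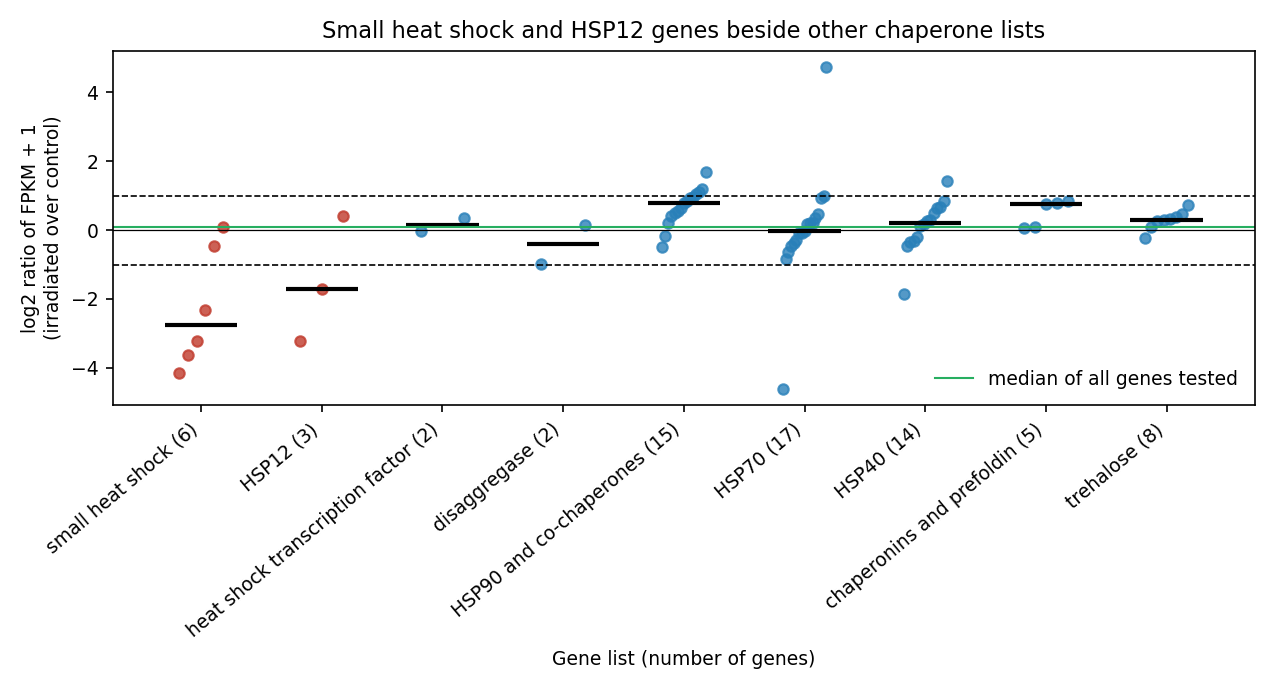
Log2 ratio of FPKM + 1 (irradiated over control) of the 6 small heat shock genes and the 3 HSP12 genes (red) and of the genes of 7 other chaperone and stress lists (blue), each point a gene that averages 10 FPKM or more and each black line a list median. Dashed lines mark 2-fold and the green line the median of all 8910 genes; the red medians lie below the lower dashed line and the blue medians between both dashed lines.

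For each of the 9 genes, the described gene nearest in level was found, by Euclidean distance over log2(FPKM + 1) in the 2 libraries. With 2 libraries, closeness says no more than that both levels are alike. HSP12 TBIU005521 lay nearest to the histone acetyltransferase subunit gene HAT2 (TBIU056667, distance 0.0084), and hspc4-1 to a thiamine thiazole synthase gene (TBIU012006, distance 0.030). The hspA gene lay nearest to the HSP40 gene YDJ1 (TBIU009309, distance 0.058), HSP12 TBIU038110 to the cytochrome P450 gene CYP72A15 (TBIU008968, 0.17) and hsp16 TBIU022656 to the peptidyl-prolyl isomerase gene ppiA (TBIU022874, 0.21). HSP12 TBIU007084 lay 0.28 from alr3466 (TBIU005265) and HSP17.9A lay 0.41 from nit-4 (TBIU011779). The most strongly lower genes lay furthest from their nearest described gene. For hsp16 TBIU009017 this was Cdkl4 (TBIU024825) at a distance of 1.05, and for hsp16 TBIU022657 the peptidase gene MEP (TBIU058247) at 0.72. Undescribed genes were not searched.

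The authors' deposited table also gives a comparison per transcript. Its header does not say which library is on top, but the sign of the log2 fold change in the authors' deposited table equals that of the FPKM ratio, irradiated over control, in 97.8% of the 30039 transcripts above 0 in both libraries. The authors' deposited table gives a log2 fold change of -4.27 for hsp16 TBIU009017, -3.7 for hsp16 TBIU022657, -3.28 for HSP17.9A and -2.42 for hspc4-1. For genes within 2-fold it gives -0.519 for hsp16 TBIU022656, 0.0521 for hspA and -0.00165 for the main isoform of HSP12 TBIU005521. For HSP12 isoforms listed at 0 in 1 library it gives -12.4 (TBIU038111), -6.74 (TBIU005520) and 10.6 (TBIU005522), values that rest on that 0. In the authors' deposited table the lowest p-value among the 13 transcripts was 0.0185, for the HSP12 isoform TBIU038111, and hsp16 TBIU009017 had 0.0541. All q-values in the authors' deposited table were 1, for these and for all 57717 transcripts, and the test behind them is not stated.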

How the data were processed

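Fruit body RNA (1000 ng per library) was sequenced by the authors as 1 irradiated and 1 control library, grouped by the treatment labels. The deposited table gives FPKM per assembled transcript, and per the file headers also a log2 fold change, p-values and q-values of the authors. The assembler, aligner and quantifier are not stated. The table holds 2 further columns of per-sample values whose headers name no sample, and these were not used. A minimum and counting intervals planned on them were replaced, after results with them had been seen, by a minimum mean of 10 FPKM with no interval, and read depth is unknown.

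FPKM were summed over isoforms, ratios were log2 of FPKM + 1, and 2-fold marked a difference, with no test. The genes, lists and alternatives were chosen with earlier results of these data known. Named list genes are the most abundant of each list and those past 2-fold; each of the 9 genes also has its nearest described gene. Python 3.11.15, NumPy 2.4.6, pandas 2.3.3, SciPy 1.17.1 and Matplotlib 3.10.9 were used.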

Additional observations from a re-analysis of the deposited data

How the results depend on the processing

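The 9 gene ratios were recomputed with pseudocounts of 0.1 and 5, with the median of the 8910 genes (0.10) removed, and with the isoform of highest mean FPKM alone. In all 36 recomputed ratios the gene kept its side of the 2-fold line, and 6 genes lower and 0 higher held under each. The pseudocounts and the median could hardly have changed this. The lowest level of the 9 genes was 18.7 FPKM, and no gene lay between -1.72 and -0.47. The 6 small heat shock genes have 1 transcript each, so for them the isoform alternative could not differ. The ratio of hsp16 TBIU009017 ranged from -4.26 to -3.99, that of HSP12 TBIU005521 from 0.06 to 0.41 and that of hspA from -0.02 to 0.08. With the median removed, hsp104 passed the 2-fold line, and of the 61 genes of the 7 lists 3 were lower and 5 higher. Of the 8910 genes, 13.6% were then lower and 10.7% higher. With no filter on low values, 27.3% of all 43428 genes were lower and 32.7% higher. The 7 lists then held 316 genes, of which 80 were lower and 111 higher, as scarce genes then enter. At a mean of 50 FPKM or more, chosen after seeing the data, 8.89% of genes were lower and 6.98% higher. Of the 37 list genes that remained, 0 were lower and 3 higher. The alternative on the authors' other pair of values was not run, since those columns name no sample. No paired analysis was possible because each group had 1 library. No library could be left out either, and differences between fruit bodies or preparations cannot be told apart from the exposure.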
